A study of Mus musculus with 12 samples.

Results

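Lung mRNA of 10 genes for epithelial salt transport was described in A/J mice, an inbred strain with hyperresponsive airways. The genes encode the 3 subunits of the epithelial sodium channel (Scnn1a, Scnn1b and Scnn1g), 5 transporters and channels of anion secretion (Cftr, Slc26a4, Ano1, Slc12a2 and Slc26a9), the proton pump subunit Atp12a and the potassium channel Kcnj16. Every probe set of an Affymetrix whole-genome mouse array whose annotation gave 1 of these symbols alone was taken, which gave 14 of the 45101 probe sets and covered 9 of the 10 genes. Slc26a9, a chloride channel of airway epithelium, had no such probe set and has no value here. All mice were 8 to 10 weeks old, and whole lung was measured in 4 groups of 3 arrays. The PBS/PBS group received vehicle (phosphate-buffered saline). The OVA/PBS group was sensitized with ovalbumin, an egg protein used as an experimental allergen, at 0.4 mg/kg intraperitoneally on day 0 and challenged with 30 mg/kg in the trachea on day 14. The PBS/PM group aspirated 50 µl of ambient Baltimore particulate matter (PM) suspended at 10 mg/ml in PBS, and the OVA/PM group had both exposures. Per the study's methods, each group's RNA came from the lungs of 3 animals, so the replicates were animals, and lungs were collected 4 days after PM or vehicle.

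The fluid layer on airway epithelium is set by 2 opposing fluxes of salt, which water follows. Sodium enters the cell through the epithelial sodium channel on the airway face and is pumped out on the blood side by the sodium pump, which removes fluid from the airway. Chloride loaded from the blood side by Slc12a2, the sodium-potassium-chloride cotransporter, leaves through the cAMP-gated channel Cftr and the calcium-gated channel Ano1, while Slc26a4 (pendrin) exchanges chloride for bicarbonate and other anions. The sodium channel also lies in alveolar epithelium, where it clears fluid from the air spaces. Interleukins of allergic airways are known to raise pendrin and to lower sodium absorption in cultured airway cells.

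The group names carry a doubt that comes before every result. Fold changes recomputed from the arrays were compared with 28 that the study lists for OVA alone and PM alone. All 28 were equal within 0.05 when the names OVA and PM were exchanged, and 4 were equal as titled. The titles were followed here. OVA/PBS and PBS/PM are therefore written as OVA-labelled and PM-labelled arrays, and an exchange would swap the values of those 2 groups throughout. It would leave the values of the OVA/PM and PBS/PBS arrays as they are. In comparisons of OVA/PM with a single exposure, it would change which exposure was the added one. The OVA/PM titles themselves were not checked, because the 28 fold changes cover OVA alone and PM alone. The array values, log2 intensities normalized by the authors, had medians between 4.84 and 5.03 in the 12 arrays, and their number limits the precision. In OVA/PM replicate 3 the hybridization controls BioB and BioC, bacterial RNAs added to every array, read 6.65 and 7.56 against at most 4.68 and 3.95 elsewhere. Calls of members and other named genes in OVA/PM that were lost without that array are given as such, and over all genes tested its omission left 1068 higher and 693 lower of 11363 against PBS/PBS. Lung was recognised in every group by 4 markers of alveolar type 2 cells, with a mean level between 14.18 and 14.47 in all 12 arrays. A list of 7 general epithelial markers had a mean between 11.52 and 11.75. Thyroid also carries pendrin, and 4 thyroid markers had a mean between 2.36 and 2.50, under the median of all values (4.93).

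The windows of 250 bases before the annotated start of the genes with the largest changes are shown so that the genes named below can be placed on the genome. They come from RefSeq for GRCm38.p6, which held a window for 7 of the 10 genes. Capitals mark a TATAAA match in Slc26a4 and matches of GGGCGG or its reverse complement in the other two.
Slc26a4, minus strand, chr12:31559985-31560234: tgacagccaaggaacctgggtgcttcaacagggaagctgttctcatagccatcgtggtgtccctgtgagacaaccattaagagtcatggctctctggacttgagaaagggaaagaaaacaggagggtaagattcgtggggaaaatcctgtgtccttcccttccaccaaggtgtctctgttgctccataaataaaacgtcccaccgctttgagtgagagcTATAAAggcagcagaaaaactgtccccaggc
Scnn1b, plus strand, chr7:121864788-121865037: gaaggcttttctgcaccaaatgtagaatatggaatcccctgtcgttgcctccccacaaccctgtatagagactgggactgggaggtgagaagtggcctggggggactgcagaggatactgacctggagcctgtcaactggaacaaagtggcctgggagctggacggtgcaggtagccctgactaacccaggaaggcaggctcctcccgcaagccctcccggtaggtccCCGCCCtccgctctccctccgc
Scnn1g, plus strand, chr7:121734229-121734478: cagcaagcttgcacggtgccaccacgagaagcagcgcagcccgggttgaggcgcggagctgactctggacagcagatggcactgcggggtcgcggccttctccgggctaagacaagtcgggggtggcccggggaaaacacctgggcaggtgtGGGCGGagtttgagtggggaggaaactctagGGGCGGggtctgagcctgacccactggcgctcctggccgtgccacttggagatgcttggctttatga
The TATAAA match began 31 bases before the start of Slc26a4, and 12.4% of 32851 mouse promoter windows held 1 on either strand. GGGCGG, the GC box, was found 2 times before Scnn1g and 1 time before Scnn1b, and 32.7% of all windows held it. Searches on both strands for the STAT6 motif of interleukin-4 signalling (TTC and GAA 4 bases apart), for TTCNNNGAA of other STAT factors, for TGANTCA of AP-1 and for TGACGTCA of the cAMP response found no match in these 3 windows, against 5.85%, 7.02%, 6.75% and 1.55% of all windows. The STAT motifs differ in their spacing and can overlap. Scnn1g and Scnn1b lie next to each other on chromosome 7 in the same direction, with no other gene of the gene table wholly between them.

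Of the 9 genes with a probe set, 7 were above the median of all values in every array. The order of intensities between genes carries no meaning on these arrays, so each gene was compared only with itself. Atp12a stayed between 2.37 and 2.56 (log2 intensity) in the 12 arrays. The probe sets of Kcnj16 stayed between 2.58 and 2.67 and between 2.39 and 2.55. No level above background was therefore seen for either gene in any group, and they were not tested. The second Cftr probe set was also under 4.93, between 3.26 and 3.72, while the first read between 7.77 and 8.52.

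**Figure D1:**
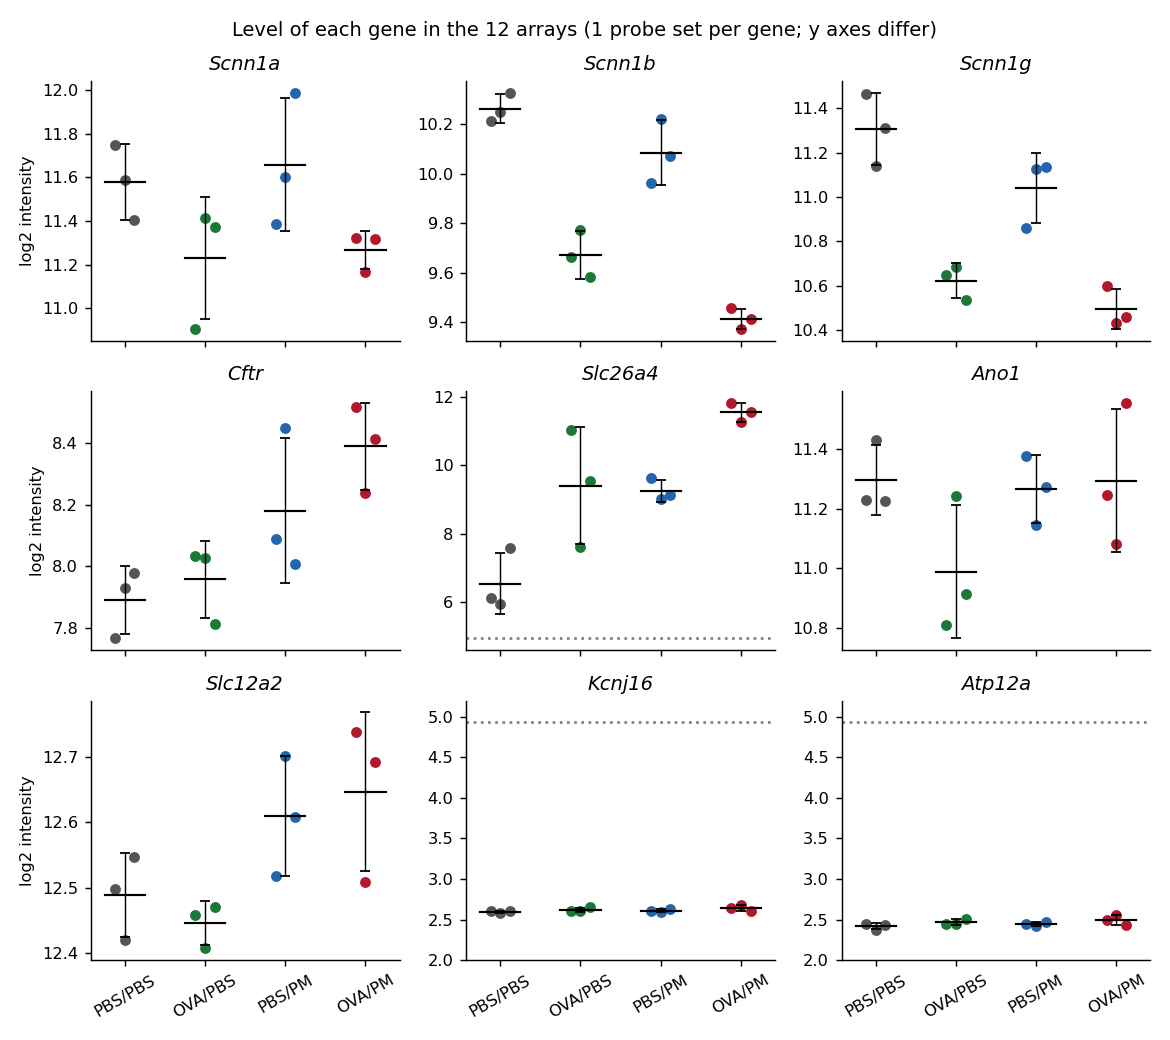
Level of the 9 genes with a probe set in each of the 12 arrays, in log2 intensity (each panel has its own y axis, and the dotted line is the median of all values, 4.93, where it falls in the panel). Points are arrays, the horizontal line is the group mean and the bar is 1 SD of 3 arrays. Slc26a4 lay between 11.26 and 11.83 in OVA/PM, above all 9 other arrays, Scnn1b between 9.38 and 9.46, below all 9 others, and Kcnj16 and Atp12a were under the dotted line throughout.

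The comparisons with PBS/PBS asked how each exposure, alone or combined, moved these genes. In OVA/PM, Slc26a4 was 32.2-fold higher and Cftr 1.41-fold higher, while Scnn1b was 1.8-fold and Scnn1g 1.75-fold lower. In the OVA-labelled arrays the sodium channel subunits Scnn1b and Scnn1g were 1.5-fold and 1.61-fold lower. No member passed in the PM-labelled arrays. Limma, a linear model with a moderated spread, called 0 of 7 tested members higher and 2 lower in the OVA-labelled arrays at an adjusted p under 0.05, where 11.3% of all 11327 genes tested were higher and 7.58% lower. It called 2 higher and 2 lower in OVA/PM, against 13.9% and 9.74% of all 11334 genes. In the PM-labelled arrays it called 0 of 7 in either direction, against 0.0986% and 0% of all 11159 genes, and 1 member (Slc26a4) had an unadjusted p under 0.05, as did 5.65% of all genes. The median log2 fold change of the 7 members was -0.31, 0.08 and 0.00 in the OVA-labelled, PM-labelled and OVA/PM arrays, against 0.00, 0.03 and 0.01 over all genes tested. These 3 comparisons share the PBS/PBS arrays. RNA was taken from whole lung, so fewer cells of a type and less RNA per cell cannot be told apart.

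**Figure D2:**
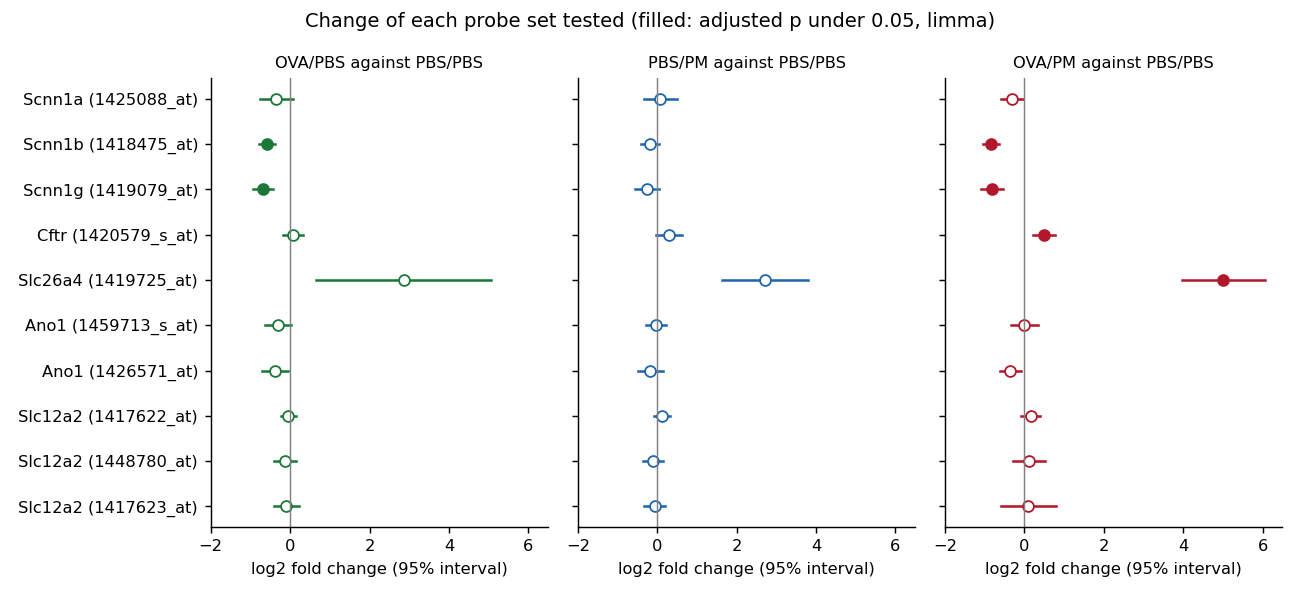
Log2 fold change of the 10 probe sets tested in the 3 comparisons with PBS/PBS, with its 95% interval from limma. Filled points passed at an adjusted p under 0.05. Slc26a4 lies far to the right in all 3 panels (2.86, 2.71 and 5.01) and is filled only in OVA/PM, and Scnn1b and Scnn1g lie to the left and are filled in the OVA-labelled arrays and in OVA/PM.

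Scnn1b encodes the beta subunit of the sodium channel, and mice that overproduce it in the airways have dehydrated airway surfaces. Its log2 intensity was 10.21, 10.25 and 10.33 in the PBS/PBS arrays, 9.66, 9.77 and 9.58 in the OVA-labelled arrays, 9.96, 10.22 and 10.07 in the PM-labelled arrays, and 9.46, 9.38 and 9.41 in OVA/PM. All 3 OVA-labelled arrays and all 3 of OVA/PM lay below all PBS/PBS arrays, and the OVA/PM arrays lay below the OVA-labelled arrays as well. The PM-labelled arrays overlapped PBS/PBS. The log2 fold change was -0.85 in OVA/PM (SE 0.08, adjusted p = 0.00186) and -0.59 in the OVA-labelled arrays (SE 0.08, adjusted p = 0.0145 from limma). The PM-labelled arrays gave -0.18 (95% interval -0.40 to 0.05, adjusted p = 0.671). The call in OVA/PM was kept without each of the 6 arrays in turn, at log2 fold changes from -0.87 to -0.81, and so also without OVA/PM replicate 3. The call in the OVA-labelled arrays was lost without PBS/PBS replicate 2 (adjusted p = 0.057) and without OVA/PBS replicate 3 (0.0628).

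Scnn1g encodes the gamma subunit, which proteases cleave to open the channel. Its log2 intensity was 11.47, 11.14 and 11.31 in PBS/PBS, 10.65, 10.68 and 10.54 in the OVA-labelled arrays, 10.86, 11.13 and 11.14 in the PM-labelled arrays, and 10.60, 10.43 and 10.46 in OVA/PM. The OVA-labelled arrays and those of OVA/PM lay below all PBS/PBS arrays and overlapped each other. All 3 PM-labelled arrays also lay below the lowest PBS/PBS array, of which the highest read 11.14 as well. The log2 fold change was -0.81 in OVA/PM (SE 0.11, adjusted p = 0.0062), -0.68 in the OVA-labelled arrays (SE 0.11, adjusted p = 0.0164) and -0.27 in the PM-labelled arrays (SE 0.12, adjusted p = 0.645 from limma). The OVA/PM call held without each array in turn. Leaving out OVA/PBS replicate 1 or 3 ended the call in the OVA-labelled arrays (adjusted p = 0.0542 and 0.0707).

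Scnn1a encodes the alpha subunit, without which no channel current forms. Its log2 intensity was 11.75, 11.59 and 11.40 in PBS/PBS, 10.91, 11.41 and 11.37 in the OVA-labelled arrays, 11.39, 11.60 and 11.99 in the PM-labelled arrays, and 11.32, 11.17 and 11.32 in OVA/PM. The OVA/PM arrays lay below PBS/PBS, and the other two groups overlapped it. The log2 fold change in OVA/PM was -0.31 (95% interval -0.59 to -0.03, adjusted p = 0.107) and in the OVA-labelled arrays it was -0.35 (95% interval -0.76 to 0.06, adjusted p = 0.177 from limma). Neither passed, and no alternative setting brought a call for Scnn1a. The intervals of Scnn1a and Scnn1g overlapped in the OVA-labelled arrays, and a difference between the subunits was not tested.

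Pendrin, the product of Slc26a4, is an anion exchanger that airway epithelium makes in allergic states. Its log2 intensity was 6.12, 5.93 and 7.56 in PBS/PBS, 11.04, 7.62 and 9.54 in the OVA-labelled arrays, 9.62, 9.0 and 9.12 in the PM-labelled arrays, and 11.83, 11.26 and 11.55 in OVA/PM. Every exposed array lay above every PBS/PBS array, and every OVA/PM array above all others. OVA/PBS replicate 2, at 7.62, lay close to the highest PBS/PBS array, and OVA/PBS replicate 1, at 11.04, close to the lowest OVA/PM array. The spread was 1.71 (SD, n = 3) in the OVA-labelled arrays, against 0.33 in the PM-labelled arrays and 0.28 in OVA/PM.

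In OVA/PM the log2 fold change of Slc26a4 was 5.01 (95% interval 3.96 to 6.06, adjusted p = 0.00129 from limma). In the PM-labelled arrays it was 2.71, or 6.53-fold (SE 0.45, 95% interval 1.63 to 3.79), and the adjusted p was 0.198. For the OVA-labelled arrays it was 2.86, or 7.27-fold (SE 0.90, 95% interval 0.66 to 5.06), and the adjusted p was 0.0718. Both intervals exclude 0, and neither change passed after adjustment over all genes. Without OVA/PBS replicate 2 the change in the OVA-labelled arrays was 3.75 and passed (adjusted p = 0.0218), and it also passed when all 4 groups shared 1 spread (adjusted p = 0.017). The call in OVA/PM held without each array in turn.

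Cftr encodes the chloride and bicarbonate channel that is defective in cystic fibrosis. Its log2 intensity was 7.77, 7.93 and 7.98 in PBS/PBS, 8.03, 8.03 and 7.81 in the OVA-labelled arrays, 8.09, 8.45 and 8.01 in the PM-labelled arrays, and 8.52, 8.24 and 8.41 in OVA/PM. The arrays of OVA/PM and the PM-labelled arrays lay above all PBS/PBS arrays, while the OVA-labelled arrays overlapped them. The log2 fold change was 0.50 in OVA/PM (SE 0.11, adjusted p = 0.0267), 0.29 in the PM-labelled arrays (SE 0.14, adjusted p = 0.645) and 0.07 in the OVA-labelled arrays (95% interval -0.18 to 0.32, adjusted p = 0.657 from limma). The OVA/PM call was lost without PBS/PBS replicate 1 (0.0798) or 2 (0.0834) and without OVA/PM replicate 1 (0.079) or 3 (adjusted p = 0.0665), the last being the array with the high hybridization controls. The second Cftr probe set was under 4.93 everywhere and gave no second reading.

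Ano1, the calcium-activated chloride channel, had 2 probe sets that were not alike in OVA/PM. The brighter read 11.23, 11.43 and 11.23 in PBS/PBS and 11.25, 11.08 and 11.56 in OVA/PM, groups that overlapped, with a log2 fold change of 0.00 (95% interval -0.35 to 0.35, adjusted p = 0.999), or -0.13 without OVA/PM replicate 3. The dimmer read 10.15, 10.23 and 9.95 in PBS/PBS and 9.66, 9.86 and 9.77 in OVA/PM, which lay apart, with a change of -0.35 (95% interval -0.62 to -0.08, adjusted p = 0.0681 from limma). The probe sets had like values in the OVA-labelled arrays, -0.31 (adjusted p = 0.15) and -0.37 (adjusted p = 0.099), without passing. The PM-labelled arrays gave -0.03 and -0.17 (adjusted p = 0.953 and 0.759).

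Slc12a2, which loads chloride into the cell, gave no call. Its brightest probe set lay between 12.42 and 12.55 in PBS/PBS, 12.41 and 12.47 in the OVA-labelled arrays, 12.52 and 12.70 in the PM-labelled arrays, and 12.51 and 12.74 in OVA/PM. These ranges overlapped PBS/PBS in every group. The log2 fold change was -0.04 (95% interval -0.22 to 0.14), 0.12 (-0.08 to 0.32) and 0.16 (-0.08 to 0.40) in the OVA-labelled, PM-labelled and OVA/PM arrays, so for this probe set a change beyond 0.40 lay outside the 95% interval in each. Its other probe sets gave changes between -0.12 and 0.12, with none called by limma in any of these comparisons. Their intervals in OVA/PM were wider, from -0.29 to 0.53 and from -0.60 to 0.81. Without OVA/PM replicate 3 these changes were -0.03 and -0.21, again with no call.

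The contrast of sodium absorption with anion secretion was described by the mean log2 difference from PBS/PBS over the genes of each role in every array. For the 3 sodium channel genes it was -0.54 ± 0.11 (SD, n = 3) in the OVA-labelled arrays, -0.12 ± 0.17 in the PM-labelled arrays and -0.66 ± 0.07 in OVA/PM. For the 4 anion secretion genes it was 0.64 ± 0.38, 0.77 ± 0.07 and 1.42 ± 0.17. The OVA-labelled arrays and those of OVA/PM lay apart from PBS/PBS on the sodium axis, and the PM-labelled arrays, from -0.31 to 0.01, overlapped it. The gap between the roles was 1.19 ± 0.49, 0.89 ± 0.24 and 2.07 ± 0.11 on the log2 scale. Most of it rested on 1 gene. Without Slc26a4 the anion mean was -0.09 ± 0.08, 0.13 ± 0.07 and 0.22 ± 0.15, and the gap fell to 0.45, 0.25 and 0.87. With Slc26a4 kept and OVA/PM replicate 3 left out, the gap in OVA/PM was 2.03. That mean covers genes with unlike changes, which in OVA/PM were 0.50 for Cftr, 0.16 for Slc12a2 and 0.00 for Ano1. These means are a description, with no test.

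**Figure D3:**
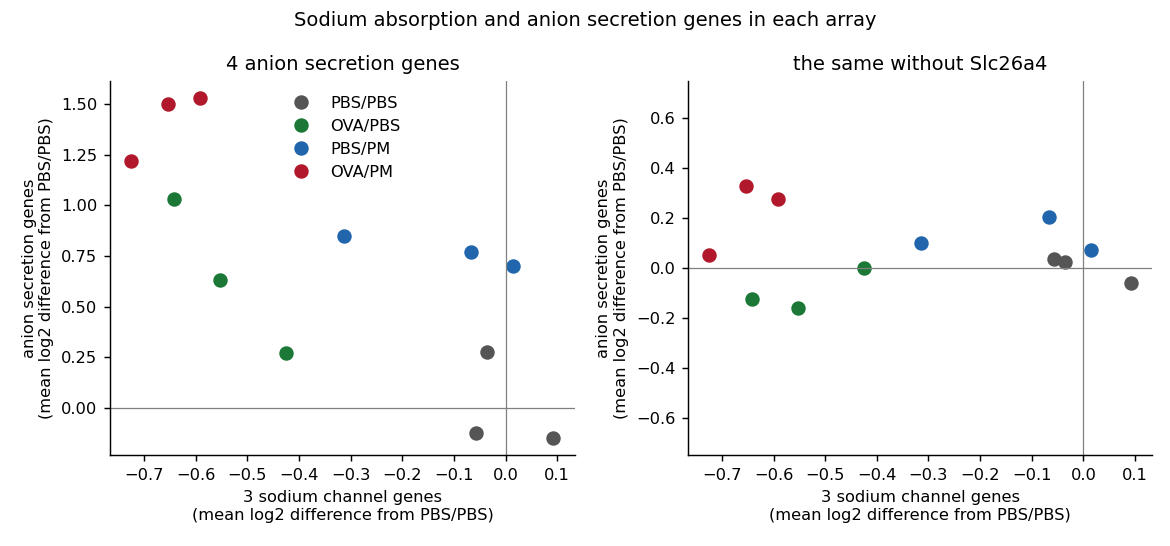
Mean log2 difference from the PBS/PBS mean of the 3 sodium channel genes (x) and of the 4 anion secretion genes (y, left) or of 3 of them without Slc26a4 (y, right). Each point is 1 of the 12 arrays, coloured by group. The OVA/PM arrays sit at the far left and top of the left panel, and in the right panel all arrays lie between -0.16 and 0.33 on the y axis.

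Between the exposed groups, OVA/PM was compared with either single exposure to see what the second exposure added. Against the PM-labelled arrays, Slc26a4 was 4.94-fold higher, a log2 fold change of 2.30 with an SE of 0.21 (limma adjusted p = 0.00213). Scnn1b was lower by 0.67 on the log2 scale (log2 fold change -0.67, adjusted p = 0.0101) and Scnn1g likewise (-0.54, adjusted p = 0.0276). Thus 1 of 7 members rose and 2 fell, where 9.13% of all genes rose and 6.77% fell. The calls of Slc26a4 and Scnn1b were kept without each array, and that of Slc26a4 was lost when all 4 groups shared 1 spread (adjusted p = 0.0521). The Scnn1g call was lost without any of 5 of the 6 arrays (adjusted p from 0.0547 to 0.0951) and held without PBS/PM replicate 1 (0.0326).

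Against the OVA-labelled arrays, limma called 0 of 7 members in either direction, where 0.15% of all genes rose and 0.00881% fell, and 3 members had an unadjusted p under 0.05, as did 8.2% of all genes. These 3 were Slc26a4 (log2 fold change 2.15, 95% interval 0.24 to 4.05, adjusted p = 0.547), Cftr (0.43, 95% interval 0.15 to 0.71, adjusted p = 0.44) and Scnn1b (-0.26, 95% interval -0.48 to -0.04, adjusted p = 0.532). Cftr lay between 7.81 and 8.03 in the OVA-labelled arrays and between 8.24 and 8.52 in OVA/PM, which do not overlap.

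Between the single exposures, limma also called 0 of 7 members, where 1.90% of all genes were higher and 4.23% lower in the PM-labelled arrays, and 2 members had an unadjusted p under 0.05, as did 32.9% of all genes. Scnn1b was 0.41 higher in the PM-labelled arrays than in the OVA-labelled arrays (adjusted p = 0.0646) and Scnn1g 0.42 higher (adjusted p = 0.0675), and both passed when all 4 groups shared 1 spread (adjusted p = 0.0152 and 0.0317) and when genes were filtered at the 75th percentile of all values (0.0372 and 0.0389). Slc26a4 differed by -0.15 (95% interval -2.12 to 1.81), an interval too wide to place 1 group above the other. In order of level, Slc26a4 thus ran from PBS/PBS through the single exposures, which do not differ beyond their spread, to OVA/PM. Scnn1b ran from PBS/PBS through the PM-labelled and OVA-labelled arrays to OVA/PM, neighbours of which none passed a test.

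The interaction term asks whether the change with both exposures differs from the sum of the single changes on the log2 scale. It was called for 0 of 7 members by limma, where 0.00876% of all genes had a positive and 0.0263% a negative call, and 0 members had an unadjusted p under 0.05. For Slc26a4 it was -0.56 (95% interval -2.80 to 1.68, adjusted p = 0.969), for Scnn1b -0.08 (adjusted p = 0.962) and for Cftr 0.14 (adjusted p = 0.954). Without OVA/PM replicate 3 these terms were -0.56, -0.08 and 0.13, with no call. The log2 changes of the single exposures of Slc26a4, 2.86 and 2.71, summed to more than the 5.01 of the combination, by less than the error. The wide interval for Slc26a4 leaves departures of more than 1 in either direction possible.

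Around the members, 71 other genes of epithelial ion and water transport were listed, of which 66 had a probe set and 52 were tested. Limma called 10 higher and 3 lower in the OVA-labelled arrays, 1 higher and 0 lower in the PM-labelled arrays, and 14 higher and 9 lower in OVA/PM. Over all genes tested the shares were 11.3% and 7.58%, 0.0986% and 0%, and 13.9% and 9.74%. Without OVA/PM replicate 3, 19 transport genes were called in OVA/PM, among them every transport gene named below for OVA/PM. Their median log2 fold change was -0.05, 0.07 and 0.02. Each role held at least 1 call in the OVA-labelled arrays and in OVA/PM. For chloride channels and anion exchangers, and in the PM-labelled arrays, the only call was Clca1. Clca1 and Kcne3, described below, were under 4.93 in all PBS/PBS arrays. They entered these tests through the exposed groups alone, so their part of the counts carries no weight. Of 13 regulators and proteases of the sodium channel, 1 rose in the OVA-labelled arrays, and 3 rose and 2 fell in OVA/PM. Tmprss4, a membrane protease, rose in both (log2 fold change 1.10 and 1.29, adjusted p = 0.0166 and 0.00306). Nedd4l, the ubiquitin ligase that removes the channel from the membrane, fell by 0.43 in OVA/PM (adjusted p = 0.0162), and Nr3c2, the aldosterone receptor, fell by 0.65 (adjusted p = 0.0198 from limma). Those last 2 genes are outside the rule on size and were named after their values were seen.

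Among potassium channels, which keep the driving force for chloride exit, 0 of 7 fell in the OVA-labelled arrays and 1 in OVA/PM. No count of higher genes is given for them, because Kcne3 was tested through the exposed groups alone. The calcium-activated channel gene Kcnn4 read 6.17 ± 0.35 in PBS/PBS, 7.32 ± 0.05 in the OVA-labelled arrays and 7.96 ± 0.14 in OVA/PM (log2 intensity, SD, n = 3), with no overlap (log2 fold change 1.15 and 1.79, adjusted p = 0.0164 and 0.00249 from limma). Kcne3, a potassium channel subunit of secretory epithelia, was under 4.93 in all PBS/PBS arrays (4.62 ± 0.02) and read 6.21 ± 0.09 in OVA/PM, at least 2.44-fold higher. Against PBS/PBS it entered each test through the exposed group alone, so any call of it is given no weight here. Among receptors and scaffolds of anion secretion, the nucleotide receptor gene P2ry6 rose by 1.36 and 1.56 (adjusted p = 0.022 and 0.00183). Of the water channels, Aqp4 rose by 1.76 and 1.52 (adjusted p = 0.015 and 0.00412). The proton pump subunit gene Atp6v0d2, also high in osteoclasts and macrophages, rose by 1.63 and 2.03 (adjusted p = 0.0144 and 0.00459 from limma). In which cells of the whole lung Kcnn4, P2ry6 and the other genes of this paragraph rose was not tested. The leukocyte marker Cd68 rose in the same groups.

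Of 10 chloride channels and anion exchangers tested besides the members, only Clca1 was called in any of these 3 comparisons, and without OVA/PM replicate 3 Slc4a2 was called as well (log2 fold change 0.50, limma adjusted p = 0.0481), a gene named after its values were seen. The product of Clca1 is a secreted goblet cell protein that modifies chloride currents and mucus, and is not itself a channel. Clca1 was 2.39 ± 0.01 (log2, SD, n = 3) in PBS/PBS, under 4.93 in every array, 8.37 ± 0.30 in the OVA-labelled arrays, 14.29 ± 0.51 in the PM-labelled arrays and 14.63 ± 0.12 in OVA/PM. It was at least 10.8-fold, 656-fold and 830-fold higher. Like Kcne3, it entered each test through the exposed group alone. Slc26a4 did not follow that order: Clca1 was far higher in the PM-labelled arrays than in the OVA-labelled arrays, where Slc26a4 had like means of 9.24 and 9.40.

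**Figure D4:**
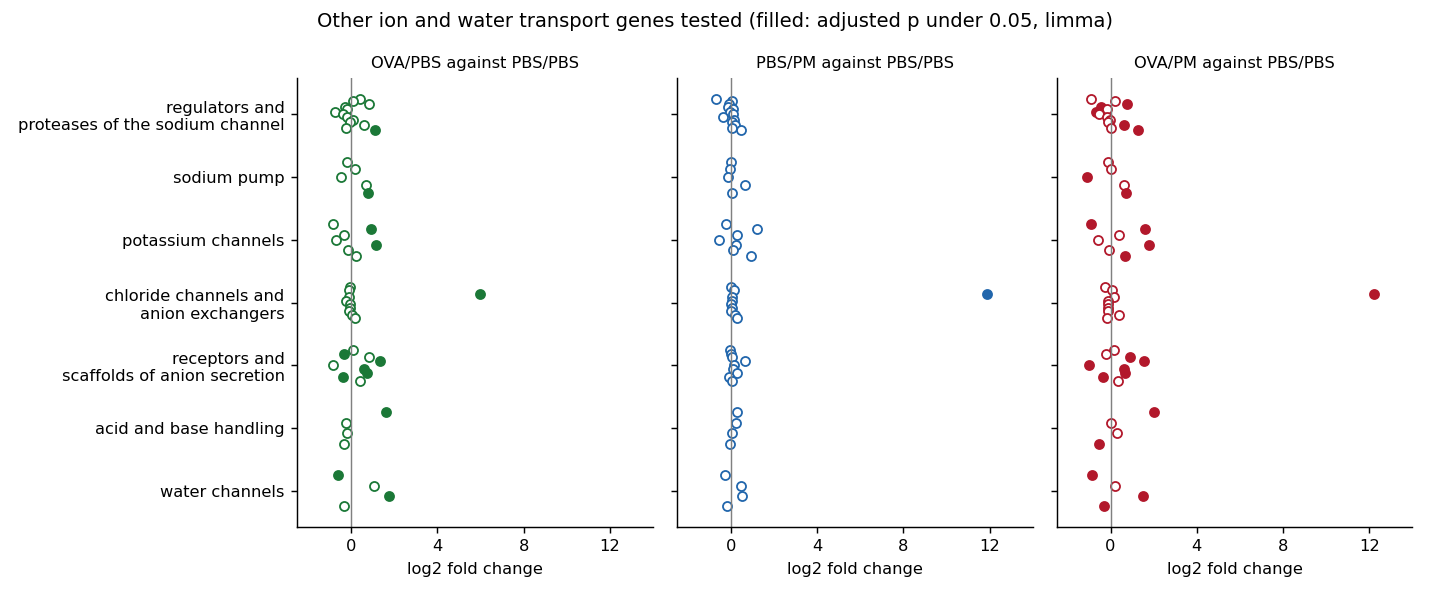
Log2 fold change against PBS/PBS of the 52 other ion and water transport genes tested, by role. Each point is 1 gene, and filled points passed at an adjusted p under 0.05 from limma. Clca1 stands alone at the right (5.98, 11.90 and 12.24), and most other genes lie between -1 and 2.

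Markers of other cells moved beside the members. Of 7 goblet cell markers, Muc5ac, Spdef and Clca1 were under 4.93 in all PBS/PBS arrays and were tested only where an exposed group was high, so no count over the list is given. Muc5ac and Spdef were named after their values were seen. The mean level of the list was between 4.69 and 4.97 in PBS/PBS, 6.98 and 7.75 in the OVA-labelled arrays, 8.40 and 9.40 in the PM-labelled arrays, and 10.61 and 10.79 in OVA/PM. That mean includes Muc5ac, Spdef and Clca1, so its rise rests in part on low levels in PBS/PBS. Slc26a4 was called in OVA/PM, where the mean was highest. Between the single exposures the mean was higher in the PM-labelled arrays, while Slc26a4 had like means of 9.24 (PM-labelled) and 9.40 (OVA-labelled). Of 5 markers of alveolar type 1 cells, which carry the sodium channel, 2 fell in the OVA-labelled arrays, 0 in the PM-labelled arrays and 4 in OVA/PM. Without OVA/PM replicate 3 it was 2 of 5 in OVA/PM. Over all genes tested, 7.58% were lower in the OVA-labelled arrays and 9.74% in OVA/PM. Hopx fell by 0.52 and 0.67 on the log2 scale (log2 fold change -0.52 and -0.67, adjusted p = 0.0313 and 0.00711 from limma). In the OVA-labelled arrays Ager and Aqp5 changed by -0.29 and -0.35 without passing (adjusted p = 0.0793 and 0.0614). The summed level of the type 1 list (log2) was between 16.33 and 16.47 in PBS/PBS, 15.92 and 16.16 in the OVA-labelled arrays, 16.21 and 16.30 in the PM-labelled arrays, and 15.93 and 15.99 in OVA/PM. Scnn1b and Scnn1g fell in the groups where type 1 markers fell, and endothelial markers fell in the same groups. In the OVA-labelled arrays and OVA/PM the median log2 fold change was -0.35 and -0.33 for the type 1 list. It was -0.53 and -0.61 for endothelium. Of 4 alveolar type 2 markers, 0 fell in the OVA-labelled arrays and 1 in OVA/PM. Of 5 club cell markers, 1 rose and 1 fell in each of these groups. The mean log2 level of 4 markers of airway basal cells varied widely between arrays of the same group. It was between 4.12 and 7.17 in PBS/PBS, 6.39 and 7.75 in the OVA-labelled arrays, 4.28 and 7.80 in the PM-labelled arrays, and 4.25 and 5.26 in OVA/PM. Krt5 and Krt15, the basal markers tested, were not called against PBS/PBS in any group. Of 7 general epithelial markers, 0 rose and 1 fell in the OVA-labelled arrays, and 1 rose and 1 fell in OVA/PM, and of 5 endothelial markers 3 and 4 fell. Of 6 ciliated cell markers, 3 rose in the OVA-labelled arrays and 3 in OVA/PM. Smooth muscle markers gave 3 lower of 5 in OVA/PM (median log2 fold change -0.45) and striated muscle markers 3 lower of 6 (median -0.86), with none called in the OVA-labelled or PM-labelled arrays. Without OVA/PM replicate 3 the calls in OVA/PM were 0 for both muscle lists, 2 lower for endothelium, 2 higher for ciliated cells, and 0 higher and 1 lower for general epithelium. The part of any of these cell types in the members' changes was not tested.

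Ionocytes, rare airway cells rich in Cftr, left little signal. Their markers Foxi1, Ascl3 and Atp6v1b1 were under 4.93 in all 12 arrays, between 2.0 and 2.41. Stap1, the other marker, which lymphocytes also express, rose in OVA/PM (log2 fold change 1.0, adjusted p = 0.0373 from limma), a call that was lost without OVA/PM replicate 3 (adjusted p = 0.0973). Foxi1 was named after its values were seen. Of 5 leukocyte markers, 1 rose in the OVA-labelled arrays and in OVA/PM. In the OVA-labelled arrays it was Cd68 (log2 fold change 2.27, adjusted p = 0.0109 from limma), a gene named after its values were seen. The mean log2 level of the list was at most 10.75 in PBS/PBS and between 10.13 and 10.53 in the PM-labelled arrays. It was at least 11.16 in the OVA-labelled arrays and at least 11.11 in OVA/PM. The summed level, which follows the brightest markers, moved less. It was (log2) between 15.58 and 15.66 in PBS/PBS, 15.94 and 16.08 in the OVA-labelled arrays, 15.55 and 15.75 in the PM-labelled arrays, and 15.69 and 15.98 in OVA/PM.

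**Figure D5:**
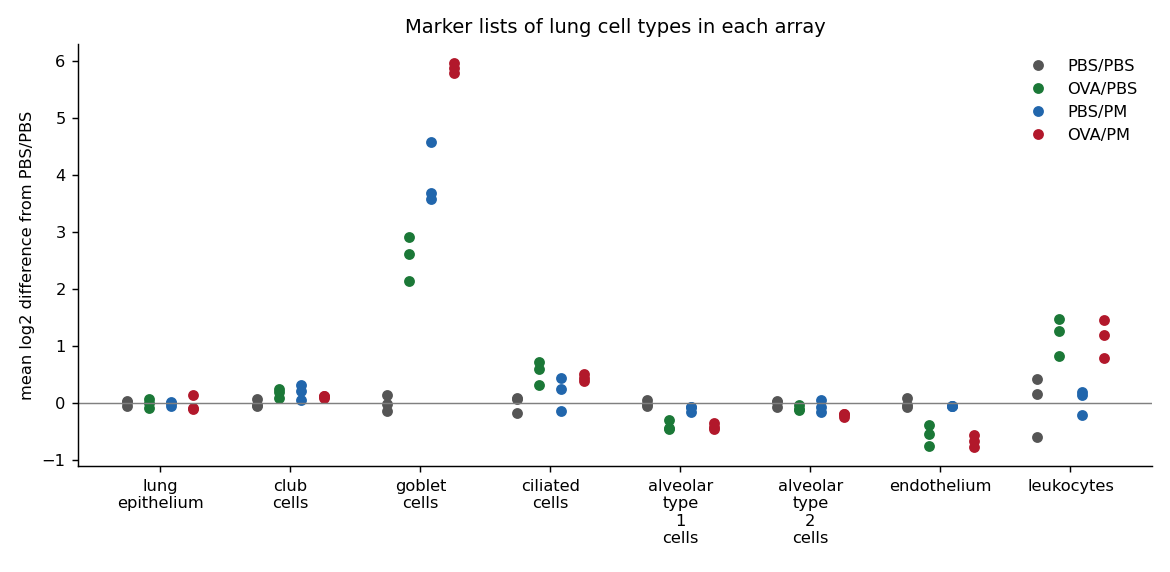
Mean log2 level of 8 marker lists in each of the 12 arrays, as a difference from the PBS/PBS mean. Points are arrays, coloured by group. The goblet list rises from PBS/PBS through the OVA-labelled and PM-labelled arrays to OVA/PM, and the alveolar type 1 and endothelial lists are lower in the OVA-labelled arrays and in OVA/PM.

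The patterns of the members over the 12 arrays were also set beside those of all 11414 genes tested, as a description that follows the group differences. Slc26a4 was most like Olfm1 (Pearson r = 0.98), Rrs1 and Naaa (both 0.96). Scnn1b was most like Fermt2, 1810010H24Rik and Nae1 (each r = 0.97), and Scnn1g was most like Abcc3, Hopx and Ric8b (each 0.96), of which Hopx is the type 1 cell marker named above. Cftr was most like Prkx (0.95), Uspl1 (0.93) and Shh (0.92). Scnn1a was most like H6pd (0.96), Pik3c3 (0.96) and Epop (0.95), Ano1 was most like Heph (0.95), Arhgef6 (0.90) and Nt5e (0.90), and Slc12a2 was most like Tab2 (0.92), Kdm5c (0.91) and Zfp518a (0.90). After group means were subtracted, the 21 pairs among the 7 members had correlations from -0.65 to 0.81 over the 12 arrays, with a median of 0.09.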

How the data were processed

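Lung RNA of 12 mice was measured on Affymetrix whole-genome mouse arrays. The authors computed the deposited log2 intensities with the GCRMA method, which corrects probes for background by base content and normalizes all arrays together, and the submitters' processing notes also name MAS5. Versions are not given in the sources used here. Background correction of that kind compresses low values, so genes under the median of all values, 4.93, are given by level alone. Each array took its group from its title.

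Group pairs were fitted in R 4.3.3 by limma 3.58.1 (lmFit, eBayes, Benjamini-Hochberg adjustment over all probe sets tested, threshold 0.05). Probe sets entered a test when 1 of its groups had every array at or above 4.93, and 64 control probe sets were left out. This kept 22498, 22246 and 22538 probe sets for OVA/PBS, PBS/PM and OVA/PM against PBS/PBS, 22379 and 22428 for OVA/PM against OVA/PBS and PBS/PM, 22404 for PBS/PM against OVA/PBS, and 22688 for the interaction over 4 groups. The SAM test named in the methods was not run. Groups of 3 are too small for an exact permutation test to reach the threshold, so single genes rest on limma. Folds are powers of 2 of the mean log2 differences, and a fold against a group wholly under 4.93 uses that level and is worded as at least. A gene with several probe sets was represented by that with the highest mean. Of all probe sets, 34958 had 1 symbol, 932 several and 9211 none. The code was tested on simulated data.

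The members, gene lists and tests were chosen with earlier results of these data known, and the TATAAA and GGGCGG searches the anion mean without Slc26a4, the lists and named genes without OVA/PM replicate 3 and the Clca1 interaction with a floor were added after the values were seen. Genes named besides the members were, for each comparison with PBS/PBS, up to 6 transport genes past the threshold with the largest change, up to 3 markers per list with the highest mean level, and the 3 genes most correlated with each member. Exceptions are named in the text. Results were recomputed with each array left out, with a fit over all 4 groups, with other probe sets of a gene, with the replicate number as a block, after quantile normalization, after adding 16 to linear intensities, unfiltered, and filtered at 8.65 (the 75th percentile). To check for pairing, deviations from group means were correlated between equally numbered arrays: 3 of 18 correlations were over 0.1, so the numbers were taken not to pair the animals.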

Additional observations from a re-analysis of the deposited data

Results flagged for a closer look

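The hybridization controls BioB and BioC, which are outside the comparisons, read 6.65 and 7.56 (mean log2 intensity of their probe sets) in OVA/PM replicate 3. In the other 11 arrays they were at most 4.68 and 3.95.

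For Clca1 the interaction of OVA and PM was -5.64 as a log2 term, with a call in limma. Clca1 was under 4.93 in all PBS/PBS arrays and entered that test through the exposed groups alone, so the call is given no weight. The size of the term rests on that low level as well. With values under 4.93 set to 4.93 the term was -3.10, which was not tested. Whether the effect of PM on Clca1 differed with OVA is therefore not decided.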

How the results depend on the processing

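The replicate numbers were taken not to pair the animals. With the replicate number as a block, limma called 0 members in the OVA-labelled arrays against PBS/PBS (2 without it) and 1 in OVA/PM against PBS/PM (3 without it). Scnn1b and Scnn1g lost their calls in both (adjusted p = 0.0654 and 0.0651 in the first, 0.0514 and 0.095 in the second). The Cftr call in OVA/PM against PBS/PBS was also lost (adjusted p = 0.0726 from limma). For the other transport genes the block gave 1 in place of 13, 6 in place of 14 and, in PBS/PM against OVA/PBS, 3 in place of 6. In that last comparison no filter gave 0 transport genes, the filter at the 75th percentile 10 and the fit over all 4 groups 20, and that filter and that fit each called 2 members where none passed. The filter at the 75th percentile gave 2 transport genes in the PM-labelled arrays and 2 in OVA/PM against OVA/PBS, and the offset 2 in the latter, in place of 1.

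Leaving out 1 array gave 0 to 4 members and 2 to 18 other transport genes in the OVA-labelled arrays against PBS/PBS, 13 to 20 transport genes in OVA/PM against PBS/PBS, 6 to 10 in OVA/PM against PBS/PM and 1 to 18 in PBS/PM against OVA/PBS. Against PBS/PBS, the OVA-labelled arrays gave 0 members and 2 transport genes without OVA/PBS replicate 3, 4 members without OVA/PBS replicate 2, 1 member and 4 transport genes without OVA/PBS replicate 1 or PBS/PBS replicate 2, and 5 transport genes without PBS/PBS replicate 1. The OVA/PM count of transport genes was 15 and 13 without PBS/PBS replicates 1 and 2. Against PBS/PM it was 7 without PBS/PM replicate 1 or 2, 9 without PBS/PM replicate 3 or OVA/PM replicate 2, and 6 without OVA/PM replicate 3. Between the single exposures it was 18 without OVA/PBS replicate 2, 2 without PBS/PM replicate 3 and 1 without any of the other 4 arrays. The gap between the roles was 0.94 to 1.43 in the OVA-labelled arrays, 0.76 to 1.05 in the PM-labelled arrays and 1.95 to 2.23 in OVA/PM with 1 array left out. Without Slc26a4 it was 0.45, 0.25 and 0.87.

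Of 882 alternatives for the log2 fold changes of single probe sets, 853 kept their direction and side of the threshold where a call was at stake, 19 lost a call, 10 gained 1 and 0 turned direction with a call. Of the 853, 33 changed sign with no call in either setting. The alternatives for Atp12a and Kcnj16, which had no tested value, were not run, and Slc26a9 had none to run. The causes were not tested. With 3 arrays a group, changes of a variable gene such as Slc26a4 can have wide intervals, and a change that did not pass is not shown to be absent.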
